A study of Homo sapiens with 6 samples.

Results

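Integrins are the receptors that tie an epithelial cell to its matrix. Each receptor is a dimer of 1 alpha and 1 beta subunit, and the pairing sets which matrix protein is bound. The retinal pigment epithelium lies on Bruch's membrane and faces the photoreceptors, and it uses integrins on both sides: laminin and collagen receptors below, and the receptor of ITGAV and ITGB5 above, where it takes part in the uptake of shed outer segments. The 10 subunits described here are the genes ITGA2, ITGA3, ITGA5, ITGA6 and ITGAV (alpha) and ITGB1, ITGB3, ITGB4, ITGB5 and ITGB8 (beta). They were taken by symbol from tables that list 20461 Ensembl genes, and all 10 were found and passed the filter on low counts.

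The libraries came from ARPE-19, an established human line of retinal pigment epithelial cells. The control group (n = 3) carried a control lentivirus and the PDZK1 group (n = 3) a lentivirus that overexpresses PDZK1, a scaffold of membrane proteins, and transduction was at a multiplicity of infection of 10. Both groups went through puromycin selection (4 µg/ml) and 48 h in 37.5 mM glucose, so each value is a level in high glucose. The transgene's promoter is not given in the sources used here, and nothing says whether replicates were separate transductions, so p-values measure the spread between these libraries. Total counts ran from 27970618 to 32804567 per library, and 3 counts, the upper limit that a count of 0 allows, were worth 0.0915 to 0.109 CPM (counts scaled for library depth). PDZK1 itself had 0.588, 0.583 and 0.834 CPM in the control libraries and 94.3, 77.5 and 89.2 CPM in the PDZK1 libraries, which checked the labels. Among 15 markers of the pigment epithelium, 5 were above 1 FPKM (fragments scaled for transcript length and depth) in every library. These were KRT8 and KRT18, which were abundant, and OTX2, MITF and RLBP1. RPE65 and TTR had no read in any library, and TYR and DCT had at most 2 and 4 counts. MERTK, LRAT, TYRP1, SERPINF1 and PMEL had means of 0.17, 0.454, 0.571, 0.645 and 1.03 FPKM over the 6 libraries. BEST1 stood at 358 CPM in PDZK1 replicate 1 and at 4.32 to 5.60 CPM in the other libraries. Leukocyte, endothelial and platelet markers other than CD68 summed to under 1 FPKM in every library and list. Control replicate 3 stood apart from control replicates 1 and 2 on the second principal component (-21.58 against 11.32 and 10.23). PDZK1 replicates 1, 2 and 3 lay at 2.24, -8.98 and 6.78 on it. Differences of a subunit or a partner pair that turned or moved by over 1.5 times without control replicate 3 are given both ways.

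The subunits differ in the short tail that faces the cytoplasm, where talin and kindlin link most beta subunits to actin. The 3′ ends of the coding sequences show this. The sequences run 5′ to 3′ up to the codon before the stop and are those of the principal GENCODE 29 transcript on GRCh38. They are shown because they separate ITGB4, the subunit with the largest difference below, from the beta subunits of the actin-linked receptors. Capitals mark codons that spell the NPxY motif, a docking site of talin or kindlin. Related motifs without the proline were not searched for and are left unmarked.
ITGB1: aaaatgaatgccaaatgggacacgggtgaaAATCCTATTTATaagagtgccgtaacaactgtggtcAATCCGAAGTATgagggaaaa
ITGB3: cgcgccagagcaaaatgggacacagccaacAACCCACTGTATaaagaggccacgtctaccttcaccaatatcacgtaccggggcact
ITGB5: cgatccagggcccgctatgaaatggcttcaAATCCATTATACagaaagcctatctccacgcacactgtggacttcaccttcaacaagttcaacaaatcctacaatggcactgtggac
ITGB8: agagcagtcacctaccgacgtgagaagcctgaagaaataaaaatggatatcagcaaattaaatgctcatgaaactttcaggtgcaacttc
ITGB4: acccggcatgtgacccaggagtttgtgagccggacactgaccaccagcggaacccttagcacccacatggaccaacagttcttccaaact

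Within the last 150 coding bases, NPxY codons were found at 2 places in ITGB1, at 1 place in ITGB3 and in ITGB5, and at 0 places in ITGB8 and ITGB4. Of 18572 coding sequences searched in frame in the same window, 0.404% held them. ITGB4 has 1822 codons, against 769 to 799 in the other 4 beta subunits, because its cytoplasmic part is far longer. That part binds plectin in hemidesmosomes, and the window covers only its end. Over the whole coding sequence, NPxY codons were found at 0 places in ITGB4 and in ITGB8. They were found at 3 places in ITGB1, 2 in ITGB3 and 1 in ITGB5. The alpha subunits share a different signature next to the membrane, the codons of GFFKR, which are in capitals in the partner of ITGB4 and in the most abundant alpha subunit.
ITGA6: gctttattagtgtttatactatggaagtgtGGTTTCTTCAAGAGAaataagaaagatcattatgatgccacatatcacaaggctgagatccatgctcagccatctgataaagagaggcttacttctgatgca
ITGA3: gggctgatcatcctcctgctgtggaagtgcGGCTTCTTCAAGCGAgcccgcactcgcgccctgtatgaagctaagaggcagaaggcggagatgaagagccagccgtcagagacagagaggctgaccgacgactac

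All 5 alpha subunits held GFFKR codons in that window, as did 0.0646% of the coding sequences searched. The deposited values are per gene, so they do not say which splice form of a tail was present.

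On the FPKM scale, which corrects for transcript length and allows genes to be set side by side, the order of levels was ITGB1, ITGA3, ITGB5, ITGA5, ITGAV, ITGA6, ITGB8, ITGB4, ITGB3 and ITGA2. ITGB1, the common partner of most alpha subunits, lay between 411 and 462 FPKM over the 6 libraries, and ITGA3, its laminin-binding partner, between 319 and 359 FPKM. ITGB5 lay between 152 and 171 FPKM and ITGA5, the alpha subunit of the fibronectin receptor, between 82.0 and 110 FPKM. ITGAV was at 60.0 to 69.2 FPKM and ITGA6 at 28.9 to 32.2 FPKM. The levels of these 6 subunits did not overlap over the libraries. ITGB8 followed at 8.13 to 13.4 FPKM, and ITGA2, the alpha subunit of a collagen receptor, closed the order at 0.636 to 1.04 FPKM. ITGB4 (3.52 to 7.28 FPKM) and ITGB3 (1.95 to 4.98 FPKM) were the only neighbours in the order whose levels overlapped. In the control libraries ITGB4 was above ITGB3 throughout, and in the PDZK1 libraries their levels overlapped.

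**Figure D1:**
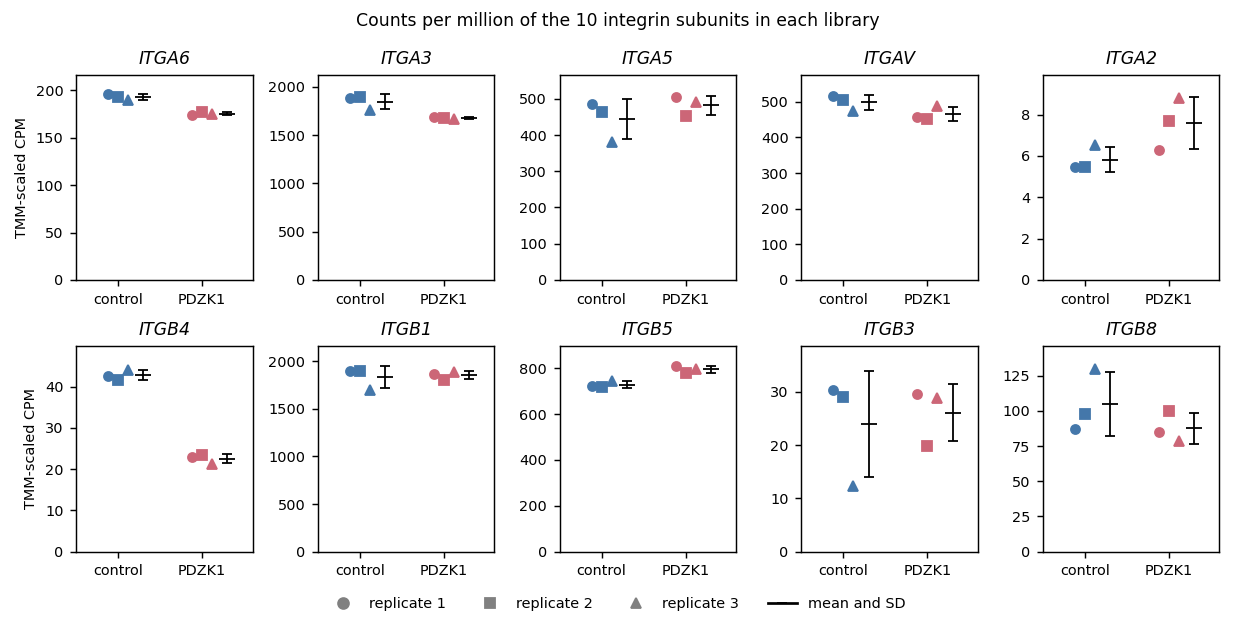
CPM scaled by TMM (y axis, from 0, a separate scale in each panel) of the 10 subunits in the 3 control libraries (blue) and the 3 PDZK1 libraries (red), with a marker for each replicate number and a bar for the mean ± SD. ITGB4 lies between 41.7 and 44.1 CPM under the control virus and between 21.3 and 23.3 CPM under PDZK1, and control replicate 3 is the lowest library for ITGB3 and the highest for ITGB8.

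The first comparison asked which subunits differ between the groups. Of the 10 subunits, 2 were lower past the threshold of the edgeR test (adjusted p under 0.05 over 13645 genes), ITGB4 and ITGA6. They are the beta and the alpha subunit of the laminin receptor of hemidesmosomes. None of the 10 was higher past the threshold. Of the 10, 6 were under an unadjusted p of 0.05, as were 17.5% of all genes tested. Over all genes tested, 3.83% passed the threshold, 2.41% lower and 1.41% higher. The median log2 fold change of the 10 was -0.043, against 0 over all genes. DESeq2 called 4 of the 10, adding ITGA3 (lower) and ITGB5 (higher).

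ITGB4 (ENSG00000132470, chromosome 17, 75721328 to 75757818, plus strand, GRCh38) had 42.5, 41.7 and 44.1 CPM in the control libraries and 22.9, 23.3 and 21.3 CPM in the PDZK1 libraries. Every PDZK1 library lay below every control library. The mean went from 42.8 ± 1.26 to 22.5 ± 1.07 CPM (SD, n = 3 each), to 0.526 of the control level (95% interval 0.48 to 0.576). The log2 fold change was -0.93 (SE 0.0588, edgeR adjusted p 8.2e-05), the 5th smallest p of all genes tested. Its 3′ end overlaps GALK1 on the opposite strand, and the strandedness of the counts is not given in the sources used here. GALK1 was at 21.2 CPM in both groups. ITGB4 stayed lower past the threshold in all 16 alternatives, with log2 fold changes from -0.95 to -0.77.

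ITGA6 (ENSG00000091409, chromosome 2, 172427354 to 172506282, plus strand) is the only alpha subunit known to pair with ITGB4. It had 196, 193 and 190 CPM in the control libraries and 174, 177 and 175 CPM in the PDZK1 libraries. The groups did not overlap, but the difference was small, from 193 ± 2.93 to 175 ± 1.43 CPM (SD, n = 3 each). This came to -0.14 on the log2 scale (SE 0.0312, edgeR adjusted p 0.0391), with a 95% interval of -0.21 to -0.07. The call was lost in 5 of 6 refits with 1 library removed (adjusted p 0.134 without control replicate 1, 0.143 without control replicate 2, 0.17, 0.0966 and 0.16 without PDZK1 replicates 1, 2 and 3) and held without control replicate 3 (0.0183). It was also lost with library totals as the only scaling (-0.12, adjusted p 0.0661), where the median of all genes moved to 0.018. Annotated RNAs on the opposite strand, ITGA6-AS1 among them, overlap ITGA6.

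**Figure D2:**
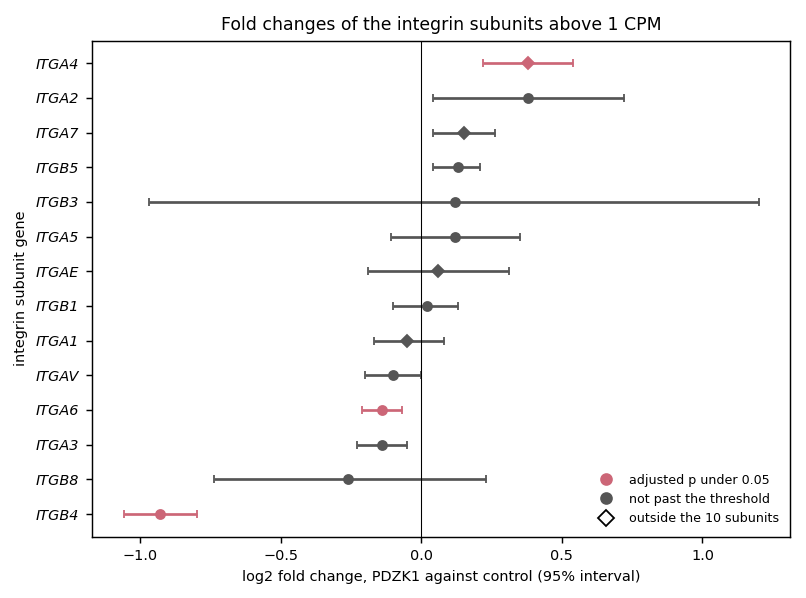
Log2 fold change of PDZK1 against control (x axis) with 95% intervals from edgeR for the integrin subunit genes above 1 CPM (y axis). Circles are the 10 subunits and diamonds other integrin genes, and red marks an adjusted p under 0.05. ITGB4 lies at -0.93, apart from the rest, whose estimates run from -0.26 for ITGB8 to 0.38 for ITGA2 and ITGA4.

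ITGB1 (chromosome 10, 32900319 to 33005792), the beta subunit shared by the laminin, collagen and fibronectin receptors, had 1900, 1904 and 1701 CPM in the control libraries and 1870, 1808 and 1888 CPM in the PDZK1 libraries. The groups overlapped, and the log2 fold change was 0.02 (95% interval -0.10 to 0.13, edgeR adjusted p 0.912). Without control replicate 3 the estimate was -0.04. The interval excludes a change of 1.5-fold in either direction.

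ITGA3 (chromosome 17, 50055968 to 50090481), the alpha subunit of the laminin receptor ITGA3/ITGB1, had 1879, 1897 and 1755 CPM in the control libraries and 1683, 1675 and 1668 CPM in the PDZK1 libraries. All PDZK1 libraries were below all control libraries. The log2 fold change of -0.14 (95% interval -0.23 to -0.05) did not pass the threshold (edgeR adjusted p 0.109), but it did so without control replicate 3 (-0.17, adjusted p 0.00616).

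ITGA5 (chromosome 12, 54395261 to 54419460) pairs with ITGB1 to bind fibronectin. Its levels of 487, 465 and 381 CPM in the control libraries and 504, 452 and 491 CPM in the PDZK1 libraries overlapped. The log2 fold change was 0.12 (95% interval -0.11 to 0.35, edgeR adjusted p 0.599), and 0.02 without control replicate 3. ITGA2 (chromosome 5, 52989326 to 53094779) was the scarcest subunit, with 5.45, 5.47 and 6.52 CPM against 6.27, 7.69 and 8.80 CPM in the PDZK1 libraries. Its groups overlapped at the edge, and the log2 fold change of 0.38 (95% interval 0.04 to 0.72) did not pass the threshold (edgeR adjusted p 0.222).

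The ITGAV group of receptors binds vitronectin and other proteins with an RGD sequence. ITGAV (chromosome 2, 186590065 to 186680901) had 516, 506 and 475 CPM in the control libraries and 456, 451 and 487 CPM in the PDZK1 libraries. The groups overlapped through control replicate 3 and PDZK1 replicate 3, and the log2 fold change was -0.10 (95% interval -0.20 to 0.00, edgeR adjusted p 0.281). ITGB5 (chromosome 3, 124761948 to 124901418) had 722, 718 and 746 CPM against 809, 780 and 796 CPM in the PDZK1 libraries. Every PDZK1 library was above every control library, by a log2 fold change of 0.13 (SE 0.0358, 95% interval 0.04 to 0.21) that did not pass the threshold (edgeR adjusted p 0.0948). It passed without control replicate 3 (0.14, adjusted p 0.0235). ITGB5-AS1, on the opposite strand, overlaps ITGB5.

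ITGB3 and ITGB8 were the least even subunits among replicates. ITGB3 (chromosome 17, 47253846 to 47311816), the beta subunit of the vitronectin receptor ITGAV/ITGB3, had 30.4, 29.1 and 12.4 CPM in the control libraries and 29.6, 19.9 and 28.9 CPM in the PDZK1 libraries. Its log2 fold change of 0.12 had a 95% interval of -0.97 to 1.20 (edgeR adjusted p 0.924), and the estimate was -0.19 without control replicate 3. A second annotated gene, AC068234.1, overlaps ITGB3 on the same strand, so reads could be split between them. ITGB8 (chromosome 7, 20330702 to 20415754), whose dimer with ITGAV activates latent TGF-beta, had 86.9, 97.6 and 130 CPM against 84.8, 99.8 and 78.4 CPM in the PDZK1 libraries. The groups overlapped, the log2 fold change was -0.26 (95% interval -0.74 to 0.23, edgeR adjusted p 0.569), and it was -0.07 without control replicate 3. The interval of ITGB8 reaches past a 1.5-fold decrease, and that of ITGB3 past a 1.5-fold change in either direction.

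In 4 of the 10 subunits the groups did not overlap in CPM, with ITGB4, ITGA6 and ITGA3 lower and ITGB5 higher. Over all genes tested the groups did not overlap in 23.9%, with 12.3% lower and 11.6% higher.

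The next comparison asked how the balance between alpha and beta partners stood in each library. As ratios of FPKM, each library is its own reference. ITGA6 exceeded ITGB4 in every library, and the log2 ratio of ITGA6 to ITGB4 was 2.24, 2.21 and 2.10 under the control virus and 2.94, 2.95 and 3.03 under PDZK1. This ratio was 1.73 times as large in the PDZK1 group (difference 0.79 on the log2 scale), and the groups did not overlap. ITGB4 made up 1.08%, 1.08% and 1.23% of the summed FPKM of the 5 beta subunits under the control virus and 0.587%, 0.612% and 0.547% under PDZK1.

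Against ITGB1, each alpha subunit was the scarcer partner. The log2 ratio of ITGA3 to ITGB1 was -0.36, -0.36 and -0.31 under the control virus and -0.50, -0.46 and -0.52 under PDZK1. The log2 ratio of ITGA6 to ITGB1 was -3.83, -3.86 and -3.72 against -3.98, -3.90 and -3.99, and that of ITGAV to ITGB1 was -2.73, -2.78 and -2.71 against -2.92, -2.87 and -2.81. All 3 ratios were lower in every PDZK1 library, by 0.15, 0.15 and 0.13 log2 units. The ratio of ITGA5 to ITGB1 differed by 0.11 with overlapping groups, and by 0.06 without control replicate 3. The ratio of ITGA2 to ITGB1, also with overlapping groups, differed by 0.22, and single libraries moved it. It was 0.50 without control replicate 3, 0.09 and 0.08 without control replicates 1 and 2, 0.36 and 0.12 without PDZK1 replicates 1 and 3, and 0.36 with counts in place of FPKM. The 5 alpha subunits together came to 1.23, 1.21 and 1.24 times the FPKM of ITGB1 in the control libraries and to 1.14, 1.16 and 1.14 times in the PDZK1 libraries. ITGA3 made up 63.3% to 65.3% of the FPKM of these 5 under the control virus and 61.2% to 62.9% under PDZK1. ITGA5 made up 16.1% to 18.7% and 19.3% to 21.1%. The sum and the shares leave out alpha subunits outside the 10. Of those, ITGA7 had a mean of 34.2 FPKM over the 6 libraries, above ITGA6 (30.4), while ITGA4 had 9.73 and ITGA1 6.49.

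ITGAV was scarcer than ITGB5 and more abundant than ITGB3 and ITGB8. The log2 ratio of ITGAV to ITGB5 was -1.14, -1.20 and -1.34 under the control virus and -1.51, -1.47 and -1.38 under PDZK1, lower by 0.23 with no overlap. The ratio of ITGAV to ITGB3 and that of ITGAV to ITGB8 overlapped between the groups. Control replicate 3 was the highest library for the first (5.01) and the lowest for the second (2.23), and without it their differences went from -0.30 to 0.09 and from 0.13 to -0.08. Of the 9 pairs, 5 did not overlap, and each of these had an exact two-sided permutation p of 0.1, the smallest that 3 against 3 libraries can give (0.18 adjusted over the 9 pairs). The pairs share subunits, so the 5 are not separate observations.

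**Figure D3:**
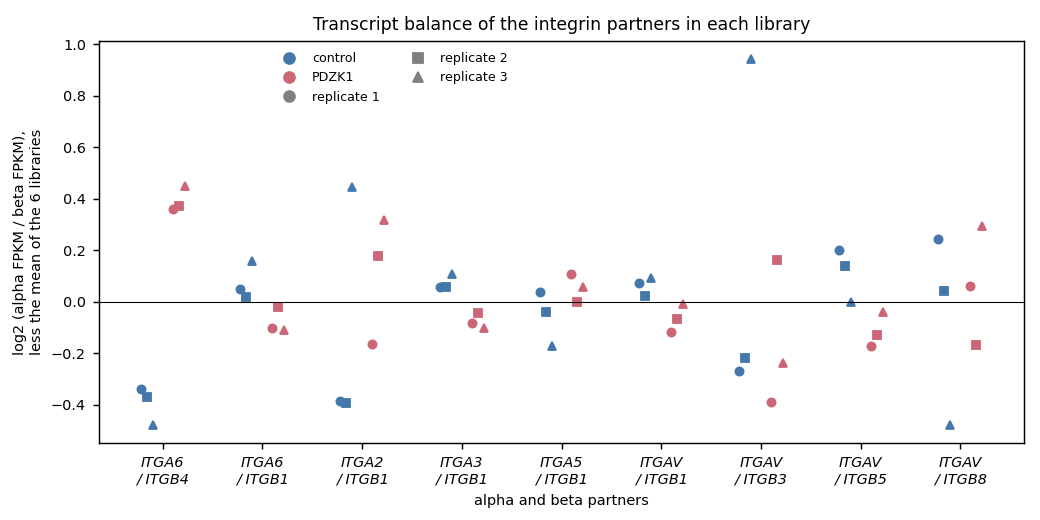
Log2 ratio of alpha to beta FPKM for the 9 partner pairs (x axis) in each library, less the mean of the 6 libraries for that pair (y axis), with control libraries in blue, PDZK1 libraries in red and a marker for each replicate number. The groups separate most for ITGA6/ITGB4, where the means are 2.18 and 2.97, and control replicate 3 lies far from its group for ITGA2/ITGB1, ITGAV/ITGB3 and ITGAV/ITGB8.

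Of the other 16 human integrin subunit genes, 6 passed the filter and 3 had no read in any library (ITGA8, ITGAD and ITGAL). ITGA4, which pairs with ITGB1 or ITGB7 and binds fibronectin and VCAM1, was the 1 that passed the threshold. It had 64.4, 62.7 and 52.7 CPM in the control libraries and 80.6, 76.2 and 77.5 CPM in the PDZK1 libraries. All PDZK1 libraries were above all control libraries, by a log2 fold change of 0.38 (SE 0.0724, 95% interval 0.22 to 0.54, edgeR adjusted p 0.0218). The call was lost in 4 of 6 refits with 1 library removed, those without control replicate 2 or any 1 of the PDZK1 replicates. It held in 8 of all 16 alternatives (adjusted p up to 0.186). The 5 others tested were ITGA1, ITGA2B, ITGA7, ITGA10 and ITGAE, and none passed the threshold. The 1 of 6 that passed is a share of 16.7%, against 3.83% of all genes. The leukocyte subunit ITGB2 was under the filter, at 0, 1 and 0 counts in the control libraries and 13, 8 and 11 counts in the PDZK1 libraries.

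The last comparison followed the proteins that integrins touch, in 4 lists of genes. The lists were drawn up with earlier results of these data known, so their counts are a description. In the hemidesmosome list, 6 of 9 genes were tested, with a median log2 fold change of -0.073, and 1 was higher and 1 lower past the threshold. That is 33.3% of those tested, against 3.83% of all genes. LAMA3, the alpha chain of laminin-332, which is the ligand of ITGA6/ITGB4, was lower, with 52.0, 53.6 and 43.8 CPM in the control libraries and 35.7, 32.9 and 36.4 CPM in the PDZK1 libraries (log2 fold change -0.51, SE 0.0805, edgeR adjusted p 0.0092). LAMA3 passed in 10 of 16 alternatives. Among those that lost the call were the refits without control replicate 2 and without PDZK1 replicate 1, and the replicate block (edgeR adjusted p 0.0601). LAMB3, the beta chain of the same laminin, did not pass it, with a log2 fold change of -0.03 (95% interval -0.26 to 0.21). The linker genes PLEC (-0.11, adjusted p 0.259) and DST (-0.10, adjusted p 0.145) were not past the threshold either. The tetraspanin CD151, a companion of laminin-binding integrins, was higher by 0.14 and only just past it (adjusted p 0.049997). CD151 lost the call in 5 of 6 refits with 1 library removed and held it without control replicate 3. It passed in 7 of all 16 alternatives. KRT5 and KRT14, the keratins that hemidesmosomes anchor in skin, had no read in any library, and COL17A1 had 0 to 15 counts.

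Among 26 genes of matrix proteins and other ligands, 23 were tested, of which 2 were higher and 4 lower past the threshold, with a list median of 0.121. Those past it were 26.1% of the genes tested in this list, against 3.83% of all genes. LAMA5, the alpha chain of laminin-511, had 55.6, 50.7 and 46.4 CPM in the control libraries and 29.3, 25.1 and 29.9 CPM in the PDZK1 libraries (log2 fold change -0.86, SE 0.0858, edgeR adjusted p 0.000895). LAMA4, another laminin alpha chain, was lower by a smaller amount (-0.26, adjusted p 0.00311). The groups did not overlap for any of the 3 laminin alpha chains that passed, which were picked for passing. The other laminin chains tested in this list did not pass. They were LAMA2 (0.37, adjusted p 0.707), LAMB1 (0.00, adjusted p 0.967), LAMB2 (-0.04, adjusted p 0.74) and LAMC1 (-0.12, adjusted p 0.152). TNC, which encodes tenascin-C, was scarce, with 5.01, 4.44 and 4.57 CPM in the control libraries and 2.50, 2.29 and 1.95 CPM in the PDZK1 libraries. Its log2 fold change was -1.06 (adjusted p 0.01), and that of FBN1, which encodes fibrillin-1, was -0.41 (adjusted p 0.0351). EDIL3, an RGD ligand of the ITGAV receptors, was higher, with 17.4, 16.9 and 17.0 CPM in the control libraries and 31.9, 31.1 and 32.8 CPM in the PDZK1 libraries (0.90, SE 0.0587, adjusted p 8.93e-05). THBS1, which encodes thrombospondin-1, was higher by 0.44 (adjusted p 0.00138). LAMA5, LAMA4, EDIL3 and THBS1 passed the threshold in all 16 alternatives. FBN1 lost the call in 5 of 6 refits with 1 library removed, and TNC without control replicate 1 and without PDZK1 replicate 3. Counting all alternatives, FBN1 passed in 7 of 16 and TNC in 11 of 14, with estimates for TNC from -1.14 to -0.29. At a mean of 0.383 FPKM, TNC was left out of the FPKM fits that required a mean of 0.5. FN1, the ligand of ITGA5/ITGB1, was at 748, 724 and 575 CPM against 1027, 834 and 1043 CPM in the PDZK1 libraries (0.50, 95% interval 0.16 to 0.85), with an adjusted p of 0.141.

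Inside the cell, 29 of 33 genes of the adhesion plaque were tested, and 1 was past the threshold. PARVB, beta-parvin of the complex around integrin-linked kinase, went from 36.7 ± 1.16 to 31.1 ± 0.496 CPM (SD, n = 3 each, log2 fold change -0.24, edgeR adjusted p 0.0377). The call was lost in 5 of 6 refits with 1 library removed and held in 6 of all 16 alternatives. Talin (TLN1, 0.03), vinculin (VCL, 0.05), paxillin (PXN, 0.02) and focal adhesion kinase (PTK2, -0.05) had 95% intervals inside 1.5-fold. The list median was 0.019. The share of the list past the threshold, 3.45%, was near that of all genes.

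Of 14 membrane partners, 13 were tested. The tetraspanin CD9 was lower, with 71.8, 71.9 and 75.7 CPM in the control libraries and 56.5, 55.0 and 53.5 CPM in the PDZK1 libraries (log2 fold change -0.41, SE 0.0478, edgeR adjusted p 0.0016), in all 16 alternatives. The syndecans, which carry heparan sulfate and act beside integrins at the matrix, went both ways, with SDC1 higher (0.55, adjusted p 0.0303) and SDC4 lower (-0.17, adjusted p 0.049997). SDC1 and SDC4 each lost the call in 5 of 6 refits with 1 library removed and held it without control replicate 3. Of all 16 alternatives, SDC1 passed in 9 and SDC4 in 3. The list median was -0.06. Over the 4 lists together, 12 of 71 genes tested passed the threshold, 4 higher and 8 lower, which is 16.9% against 3.83% of all genes. Without control replicate 3 it was 17 genes, in a refit where 875 of all genes passed, against 522 in the main fit. It was 6 or 7 without any other library.

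**Figure D4:**
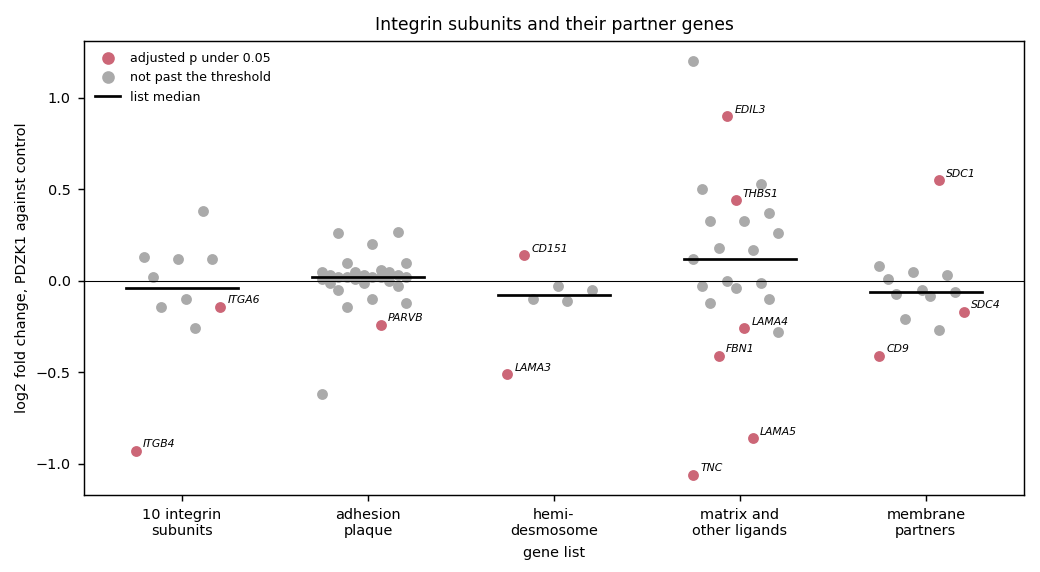
Log2 fold change of PDZK1 against control (y axis) for the tested genes of the 10 integrin subunits and the 4 partner lists (x axis), each point a gene, red where the adjusted p is under 0.05, with the median of each list as a line. Points beyond 0.80 in either direction that passed are ITGB4 (-0.93), LAMA5 (-0.86) and TNC (-1.06) below and EDIL3 (0.90) above.

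Over the 6 libraries, the 5 genes of at least 5 CPM whose profile lay closest to that of ITGB4 were GRIK5, COL5A2, SLAMF7, UNC13D and SULT1C2, of 11099 compared. Likeness was the root mean square distance between centred log2 CPM, which was 0.0373 log2 units for GRIK5 and 0.0588 for SULT1C2. COL5A2, a fibrillar collagen chain, went from 73.4 ± 1.67 to 39.1 ± 1.74 CPM (SD, n = 3 each). Genes picked for nearness to ITGB4 must differ between the groups much as it does, so their differences are not separate results. As bulk values, all levels above are averages over the culture, so fewer cells with a transcript and less of it per cell cannot be told apart.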

How the data were processed

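Libraries of ARPE-19 RNA were made with a VAHTS Universal V6 kit. Estimated counts per gene, deposited by the authors as whole numbers without scaling for depth, and FPKM deposited by the authors (scaled for transcript length and mapped fragments) were used. The submitters' processing notes name fastp 0.20.1, HISAT2 2.2.1 and GRCh38. The counting program and strandedness are not given in the sources used here. Near-identical or overlapping genes may share reads. In each table, 3 further value columns carry names found on no sample, and they were left aside. Entries named as assembled loci (853 of 21314, 0.519% to 0.536% of the counts of a library) were left out.

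Genes passing filterByExpr were tested with edgeR 4.0.16 in R 4.3.3 (TMM scaling, robust quasi-likelihood fit, two-sided, no covariates), with Benjamini-Hochberg adjustment over all genes tested. Intervals are 95% intervals of that model, and counting floors cover counting error only. CPM use TMM-scaled totals. Partner ratios are of FPKM, with an exact permutation test (SciPy 1.17.1). Alternatives were DESeq2 1.42.0, voom and a trend fit on log2(FPKM + 1) or log2(FPKM + 0.1) in limma 3.58.1, other scalings and filters, a replicate block, an added fold limit of 1.5 and each library left out. The fits were tested on simulated data. Positions and coding sequences are from GENCODE 29 (GRCh38). The members and lists were chosen with earlier results of these data known. Named genes are the 10 subunits, PDZK1, other integrin genes past the threshold, up to 4 genes past it in each direction from each partner list, the hemidesmosome partners of ITGB4, and the 5 genes with the profile nearest to that of the subunit with the smallest p. Others (GALK1, ITGB2, FN1, the laminin chains not past the threshold, the 4 plaque genes given as examples, the markers and the neighbours of ITGB4) were named after their values were seen.

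Deviations of same-numbered libraries from their group means correlated at -0.041, -0.091 and -0.158 over genes, so the numbers were not taken to pair the libraries. Libraries of different numbers correlated from -0.099 to 0.166, the highest being control replicate 3 with PDZK1 replicate 2.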

Additional observations from a re-analysis of the deposited data

How the results depend on the processing

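The alternatives were fixed with earlier results of these data known. ITGB4 was lower past the threshold under each of 16 alternatives, and ITGA6 was lower under each and past it under 6. Counts of calls depended on the test and on single libraries, and the cause was not tested beyond the smaller number of libraries or the stricter limit. DESeq2 called 793 genes (518 of the 522 shared) and 4 of the 10 subunits. With library totals as the only scaling 1 of the 10 passed, and 517 genes did so (241 higher, 276 lower, against 193 and 329). With the replicate block 163 genes, 1 of the 10 subunits (ITGB4), 0 other integrin genes by edgeR (2 under an unadjusted p of 0.05) and 5 partner genes passed, and the block changed no direction of a subunit or pair. On log2 FPKM 191, 187 and 184 genes passed (pseudocount 1, pseudocount 0.1, and 1 without a filter), with 1 of the 10 subunits, 0 other integrin genes by limma (2 or 3 under an unadjusted p of 0.05) and 6 partner genes in each. With a fold change above 1.5 also required, 171 genes, 1 subunit, 0 other integrin genes and 3 partner genes passed. Leaving out each library gave 181 to 875 genes, 1 to 4 of the 10 subunits, 0 to 2 other integrin genes and 6 to 17 partner genes, the highest of each without control replicate 3. Signs turned only in values not past the threshold and only without control replicate 3: ITGB1 (-0.04, range -0.04 to 0.04 over the libraries left out), ITGB3 (-0.19, range -0.19 to 0.33), and the differences of the ratios ITGAV/ITGB3 (-0.51 to 0.09 over the libraries left out) and ITGAV/ITGB8 (-0.08 to 0.29). The partner test cannot reach 0.05 at this size.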

Other observations

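ITGB4 lies in a gene-rich stretch of chromosome 17, and its neighbours were looked up after its value had been seen. Within 200000 bases on either side, 18 protein-coding genes of GENCODE 29 were tested, of which 2 were lower past the threshold (edgeR adjusted p under 0.05) and 0 higher. Of all genes tested, 2.41% were lower past it and 1.41% higher. The median log2 fold change of the 18 was -0.06. UNC13D, a regulator of granule release 69407 bases away, went from 91.6 to 47.4 CPM (log2 fold change -0.95, SE 0.0648, edgeR adjusted p 0.000116, n = 3 per group). TRIM47, a ubiquitin ligase gene 116343 bases away, went from 36.5 to 18.5 CPM (-0.98, SE 0.0693, adjusted p 0.000133). Both differences were close in size to that of ITGB4 (-0.93). The genes between them were not past the threshold, with log2 fold changes of 0.00 for GALK1, -0.11 for H3F3B (adjusted p 0.0948), 0.00 for UNK and -0.05 for WBP2. UNC13D is among the 5 genes with the profile nearest to that of ITGB4. That nearness comes from the same 6 libraries and restates its difference, so it adds no separate observation.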
